A study of Rattus norvegicus with 9 samples.

Results

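DNA replication and repair enzymes were examined in INS-1E cells exposed to palmitic acid (PA) with or without cyanidin-3-O-glucoside (C3G). The members were the genes that the KEGG annotation in the deposited table placed in at least 1 of 6 pathways: DNA replication, base excision repair, nucleotide excision repair, mismatch repair, homologous recombination and the Fanconi anemia pathway. The 6 Mcm helicase genes of the same pathways were left out. This gave 145 of the 20645 genes in the table, and the rule used no measured value. Of these, 108 belonged to 1 of the pathways and 37 to more than 1. A mean of at least 1 FPKM (fragments scaled to gene length and library size) over the 9 libraries was required for testing, and 142 of the 145 genes and 12958 genes in all met it. Neil2, a glycosylase listed at 0 in 7 of the 9 libraries, Poln, a translesion polymerase at 0.0807 to 0.524 FPKM, and Hmg1l1, a near copy of Hmgb1 at 0.42 to 0.836 FPKM, did not.

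INS-1E is an established rat insulinoma line, a beta cell tumour line that secretes insulin and divides in culture. Each of the 3 groups had 3 libraries taken after 24 h: cells given fatty-acid-free bovine serum albumin (BSA, the control), cells given PA, and cells given PA together with C3G, an anthocyanin pigment. The study's methods give the doses as 0.5 mM PA and 50 µM C3G. No library came from cells given C3G without PA, so the C3G comparisons describe cells that also received the fatty acid. Library totals were 45559993 to 66730721 estimated counts, and the 145 genes took 0.717% to 0.735% of the counts in BSA, 0.557% to 0.567% in PA and 0.57% to 0.574% in PA + C3G. The 7 beta cell markers examined lay between 44.3 and 36200 FPKM in all libraries, and their summed level, carried mostly by Ins1, was 44600 to 45400 in BSA, 18300 to 19000 in PA and 41100 to 47000 in PA + C3G. They did not all follow the sum. Ins2 was at 12850 to 15320 FPKM in BSA, 1748 to 2100 in PA and 6364 to 7700 in PA + C3G, the glucose transporter gene Slc2a2 at 490 to 527, 100 to 107 and 168 to 178, and Nkx6-1 at 45.1 to 54.9 in BSA and 44.3 to 62.7 in PA, which overlapped. Of the 2 markers of other islet cells, Gcg, the glucagon gene, was at 31.2, 8.28 and 22.1 FPKM in BSA, 6.02, 1.35 and 3.35 in PA, and 22.5, 4.17 and 13.2 in PA + C3G, lowest in replicate 2 of each group, and Ghrl, the ghrelin gene, lay between 0.585 and 1.38. The 3 exocrine or duct markers did not exceed 0.177 FPKM and the 3 markers of stroma, vessel or immune cells did not exceed 0.0795 FPKM. The part of the beta cell and other islet markers in the results on replication and repair genes was not tested.

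DNA is copied by 3 polymerases with separate tasks. Polymerase alpha with its primase lays short RNA-DNA primers, and polymerases delta and epsilon extend them on the lagging and leading strands, held to the template by the sliding clamp PCNA, which a clamp loader places around the DNA. Repair enzymes fall into those used by all cells at any time, such as the glycosylases of base excision and the TFIIH complex of nucleotide excision, and those that work mostly in S and G2 phase, such as the BRCA proteins and the Fanconi proteins, which copy from a sister chromatid or restart a blocked fork. Many genes of the second kind are transcribed mainly in dividing cells, under control of E2F factors. Mature beta cells divide rarely, whereas insulinoma lines do so continuously.

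Palmitic acid lowered most of these genes. In PA against BSA, 88 of the 142 tested (62.0%) were lower and 12 (8.45%) were higher at an adjusted p under 0.05 (edgeR's quasi-likelihood test, Benjamini-Hochberg adjustment over 12958 genes), where 25.2% of all genes tested were lower and 25.8% were higher. Their median log2 fold change was -0.37, with 113 of 142 below 0, against 0.00 for all genes tested. By the study's criterion of a fold change above 2 with an unadjusted p under 0.05, 29 were lower and 0 higher. Of all 12958 genes tested, 4.26% were lower and 428 genes higher by it. At an unadjusted p under 0.05 without the fold criterion, 13 were higher by edgeR, and DESeq2 called 12 higher after adjustment. In bulk samples, fewer cycling cells and less RNA of these genes per cell cannot be told apart.

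With C3G added to PA, the genes moved up by a smaller amount. In PA + C3G against PA, 33 of the 142 (23.2%) were higher and 5 (3.52%) lower, where 11.1% and 10.2% of all genes tested were. The median log2 fold change was 0.10 against 0.00 for all genes. Under TPM scaling, in which length-scaled levels are set to a fixed total per library, the split was 21 higher and 15 lower with a median of 0.01, while the median of all genes moved to -0.09 and 2525 genes of the whole table were lower against 775 higher, so the counts in this comparison depended on the scaling. Only Pole2 and Brip1 passed the study's criterion upward, where 0.702% of all genes did. Leaving out PA replicate 3 left 3 of the genes lower in place of 5, and leaving out PA replicate 3 or PA + C3G replicate 1 left 22 higher in place of 33.

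Levels in PA + C3G stayed below the control for most. Against BSA, 75 of 142 (52.8%) were lower and 6 (4.23%) higher, where 17.9% and 19.0% of all genes tested were, with a median of -0.28 against 0.01. By the fold criterion 22 were lower, where 2.77% of all genes were. The 6 higher genes were Parp3, Neil1, Xpa, Rad51d, Gtf2h1 and Sycp3, and the count was 3 without BSA replicate 1 and 3 without PA + C3G replicate 3. PA against BSA and PA + C3G against PA share the 3 PA libraries, and the other pairs of comparisons likewise share a group, so values from different comparisons are given side by side and not as separate evidence.

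**Figure D1:**
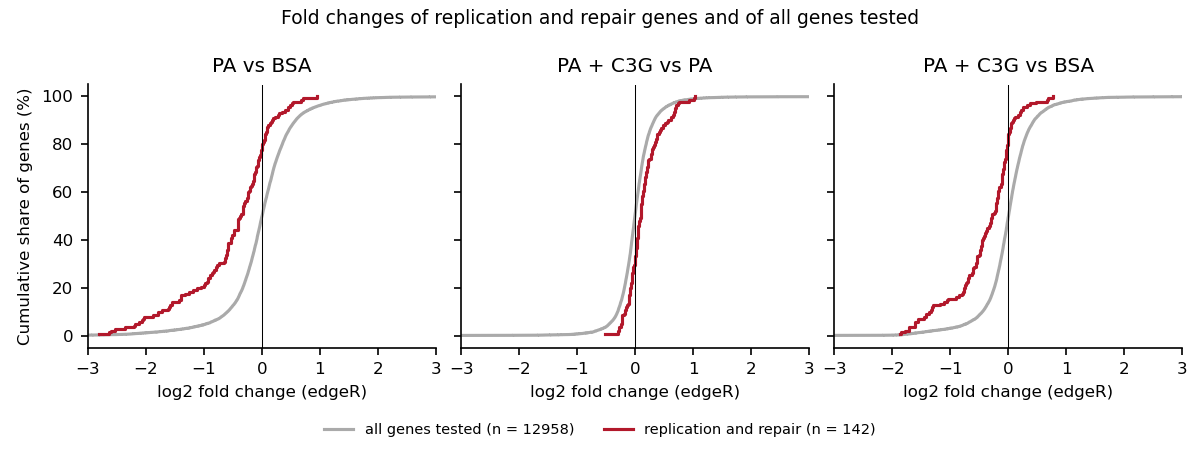
Cumulative share of genes (vertical axis, percent) by log2 fold change (horizontal axis, edgeR) for the 142 replication and repair genes tested (red) and all 12958 genes tested (grey) in the 3 comparisons. The red line lies left of the grey one in PA against BSA (median -0.37) and in PA + C3G against BSA (median -0.28), and slightly right of it in PA + C3G against PA (median 0.10).

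The 6 pathways differed in how many of their genes were called. In PA against BSA, 25.2% of all genes tested were lower and 25.8% higher. DNA replication had 27 of 30 lower and 0 higher in PA against BSA, with a median of -0.79. Mismatch repair had 21 of 23 lower and 0 higher, at -0.62. The Fanconi anemia pathway had 34 lower and 1 higher of 47 tested, at -0.53, and homologous recombination 31 lower and 2 higher of 39, at -0.48. Base excision repair had 19 lower and 6 higher (18.2%) of 33 at a median of -0.42. Nucleotide excision repair had 24 lower and 3 higher (6.67%) of 45 at -0.33. Both of these shares higher lay below that of all genes tested. The pathways share genes, since polymerases, clamp and clamp loader also fill repair gaps. The 37 genes in more than 1 pathway had 32 lower and 0 higher with a median of -0.84, and the 105 tested genes of a single pathway had 56 lower and 12 higher with a median of -0.21. With C3G the counts were 13 higher and 0 lower of 30 for DNA replication, 14 and 1 of 39 for homologous recombination, 12 and 0 of 47 for the Fanconi pathway, 9 and 2 of 45 for nucleotide excision, 6 and 2 of 33 for base excision and 6 and 0 of 23 for mismatch repair, where 11.1% of all genes tested were higher and 10.2% lower. The share higher lay nearest to that of all genes in base excision, at 18.2%, followed by nucleotide excision.

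**Figure D2:**
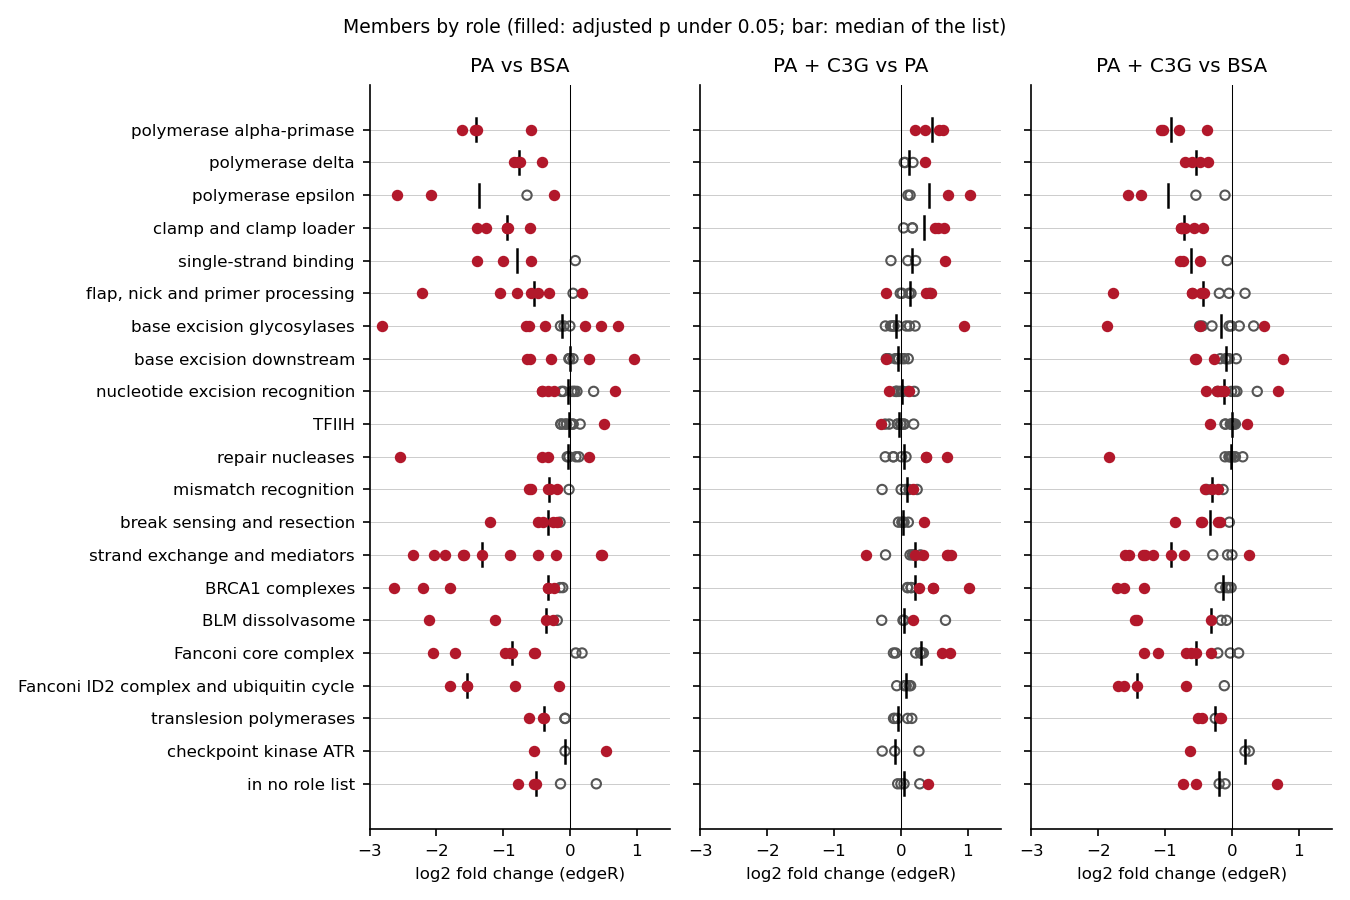
Log2 fold change (horizontal axis, edgeR) of each tested gene by role (rows) in the 3 comparisons, with filled points for an adjusted p under 0.05, open points otherwise and a bar at each list's median. In PA against BSA the polymerase, clamp, strand exchange and Fanconi rows lie mostly below 0 (medians -0.76 to -1.54 for polymerases, clamp loader, strand exchange, Fanconi core and ID2 rows), whereas TFIIH and nucleotide excision recognition are centred near 0 (medians -0.02 and -0.04).

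All 4 subunits of polymerase alpha-primase fell with PA (median -1.41 on the log2 scale), and all 4 were higher with C3G than with PA alone (0.46). Among all genes tested, 25.2% were lower in PA and 11.1% higher with C3G. Pola1, the catalytic subunit (ENSRNOG00000013322, X:62382608-62690806 on the minus strand in the authors' table, whose genome build is not given in the sources used here), was at 14.5, 12.4 and 13.0 FPKM in BSA, 4.84, 5.22 and 4.58 in PA, and 7.19, 7.56 and 7.35 in PA + C3G. The 3 groups did not overlap, and PA + C3G lay between the other two. Pola1 was 2.68-fold lower in PA than in BSA (log2 fold change -1.42 ± 0.07 SE, adjusted p = 2.58e-07) and 1.55-fold higher in PA + C3G than in PA (0.63 ± 0.07, adjusted p = 0.000453). Prim2, the large primase subunit, changed by -1.62 ± 0.15 and then 0.57 ± 0.15, and Prim1, the primase that makes the RNA primer, by -0.59 ± 0.06 and 0.22 ± 0.06. Pola2, the accessory subunit, fell by 1.39 on the log2 scale and was 0.36 ± 0.10 higher with C3G. The upward C3G calls of these 3 were lost on leaving out single libraries. Pola2 lost its call without BSA replicate 1 or 3, PA replicate 2 or 3 or PA + C3G replicate 1 or 2 (adjusted p 0.0532 to 0.116). Prim1 lost its call without PA replicate 2 or 3 or PA + C3G replicate 1 or 3 (0.0747 to 0.0989). Prim2 lost its call without PA replicate 2 or PA + C3G replicate 1 or 3 (0.0643 to 0.0757). The C3G calls of Pola2 and Prim1 were also lost under TPM scaling and with limma on log2(FPKM + 1) or log2(FPKM + 0.1).

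Polymerase delta, the lagging strand enzyme, had 4 of 4 subunits lower in PA (median -0.76), and 1 of them, Pold3, was higher with C3G. The shares of all genes tested were 25.2% lower in PA and 11.1% higher with C3G. Pold3 measured 12.8, 11.9 and 13.2 FPKM in BSA, 6.82, 7.11 and 6.88 in PA, and 8.52, 8.84 and 8.63 in PA + C3G. These ranges were apart, at -0.84 ± 0.05 for PA against BSA (adjusted p = 9.73e-07) and 0.36 ± 0.05 for C3G against PA alone (adjusted p = 0.00165). Pold1, which carries the catalytic site, was at -0.78 ± 0.07 and then 0.18 ± 0.07 (adjusted p = 0.0791), Pold2 at -0.75 ± 0.08 and 0.05 ± 0.08, and Pold4 at -0.42 ± 0.11 and 0.06 ± 0.11.

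Of the 4 entries named as polymerase epsilon subunits, 3 were lower in PA and 2, Pole and Pole2, were higher with C3G. For all genes tested the shares were 25.2% lower in PA and 11.1% higher with C3G. Pole, the leading strand catalytic subunit (ENSRNOG00000037449, 12:52403529-52452040), was at 9.55, 8.65 and 9.89 FPKM in BSA, 2.25, 2.17 and 2.13 in PA, and 3.81, 3.13 and 3.53 in PA + C3G. It was 4.21-fold lower in PA (-2.08 ± 0.08, adjusted p = 8.29e-08) and 1.64-fold higher with C3G (0.71 ± 0.08, adjusted p = 0.0005). Pole2, its structural partner, was at 3.00, 3.23 and 3.44 FPKM in BSA against 0.761, 0.261 and 0.528 in PA and 1.09, 1.08 and 0.954 in PA + C3G. The groups were apart, on 310 to 380 estimated counts in BSA and 31 to 89 in PA, and the fall was 6.05-fold (-2.60 ± 0.32, adjusted p = 0.000108). The rise of Pole2 with C3G (1.04 ± 0.31, adjusted p = 0.0425) was lost on leaving out any library other than PA replicate 1 (adjusted p 0.0501 to 0.104) and under TPM scaling. Pole4 fell by 0.24 on the log2 scale, and the entry named Pole3, at -0.64 ± 0.25 (adjusted p = 0.0548), did not pass. That entry spans 7:118816218-118816655 in the authors' table, whereas the RefSeq window of Pole3 is on chromosome 5. LOC100362333, described in the table as the accessory subunit DNA polymerase epsilon 3, lies on chromosome 5 and was lower in PA, at -0.78 ± 0.07. By chromosome, LOC100362333 and not the entry named Pole3 matches the RefSeq Pole3 gene. LOC100362333 held 1119 to 2823 estimated counts per library, against 88 to 293 for the entry named Pole3. How reads of the near-identical copies were divided is uncertain.

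The clamp and all 5 clamp loader subunits fell with PA (median -0.94), where 25.2% of all genes tested did. Pcna, the sliding clamp (ENSRNOG00000021264, 3:124880698-124884570), was the most abundant of them per length, at 186, 174 and 184 FPKM in BSA, 78.7, 73.1 and 73.0 in PA, and 122, 99.0 and 102 in PA + C3G. The groups did not overlap, with a 2.38-fold fall (-1.25 ± 0.08, adjusted p = 9.73e-07) and a 1.47-fold rise with C3G (0.56 ± 0.08, adjusted p = 0.00123). Rfc5 changed by -1.40 ± 0.07 and then 0.65 ± 0.07 with C3G, and Rfc2 by -0.94 ± 0.09 and 0.51 ± 0.09. Rfc1, the subunit particular to the PCNA loader, was at -0.60 ± 0.05 and 0.04 ± 0.05, with Rfc3 at 0.17 ± 0.09 and Rfc4 at 0.17 ± 0.08 for C3G against PA alone, none of which passed. Whether Rfc5 and Rfc2 differ from Rfc1 in this response was not tested.

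RPA coats single-stranded DNA at the fork, and its 3 subunits fell with PA. Rpa1, the large subunit, was at 9.67, 8.34 and 9.43 FPKM in BSA, 3.62, 3.29 and 3.34 in PA, and 5.38, 5.17 and 5.29 in PA + C3G. Every PA library lay below every other library, at -1.40 ± 0.07 (adjusted p = 2.43e-07) for PA and 0.66 ± 0.07 (adjusted p = 0.000304) for C3G against PA alone. Rpa2 was at -1.0 ± 0.10 and Rpa3 at -0.58 ± 0.08 for PA against BSA, and neither passed with C3G (0.22 ± 0.10 and 0.10 ± 0.08). Ssbp1, the single-strand binding protein of mitochondria, was at 0.08 ± 0.08 and -0.15 ± 0.08 and passed in neither comparison.

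Primer removal and nick sealing gave 6 lower and 1 higher of 8 genes in PA, where 25.2% and 25.8% of all genes tested were. Fen1, the flap endonuclease, was at 28.9, 25.9 and 28.1 FPKM in BSA, 13.1, 13.0 and 13.3 in PA, and 18.8, 16.6 and 16.9 in PA + C3G, with no overlap between groups (-1.05 ± 0.06, adjusted p = 7.07e-07, and 0.44 ± 0.06, adjusted p = 0.00127). Exo1, an exonuclease of mismatch repair and end resection, was 4.62-fold lower in PA (-2.21 ± 0.16). Rnaseh2a, the catalytic subunit of the RNase that removes ribonucleotides, was at -0.31 ± 0.10 in PA (adjusted p = 0.0208), a call lost without BSA replicate 2 or 3 or PA replicate 2 or 3 (0.0526 to 0.0711). Lig1, the replicative ligase, fell by 0.48 on the log2 scale, and LOC100911727, a gene described as DNA ligase 1-like, by 0.53. Reads of this pair may have been divided between near-identical sequences. Lig3, which seals nicks with XRCC1 and in mitochondria, went the other way and is described with the genes that rose.

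**Figure D3:**
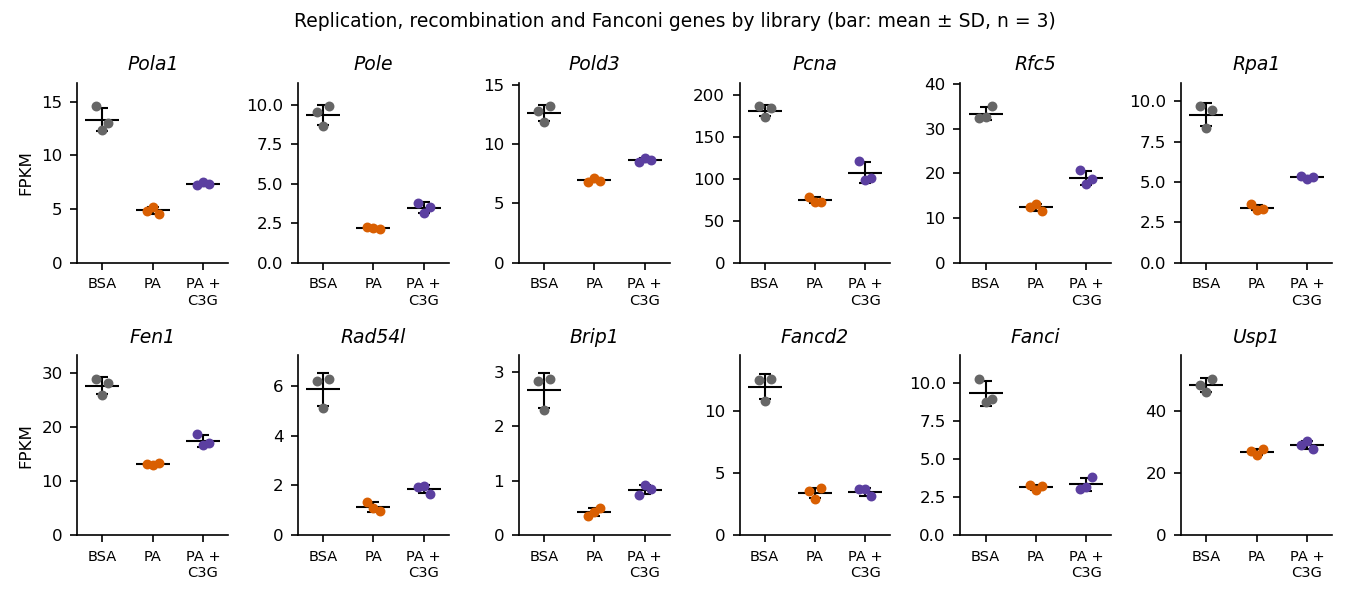
FPKM (vertical axes, from 0) of 12 replication, recombination and Fanconi genes in each library (points) with the mean and SD of 3 libraries per group. PA lies lowest for Pola1, Pole, Pold3, Pcna, Rfc5, Rpa1, Fen1, Rad54l and Brip1 with PA + C3G between PA and BSA, whereas PA and PA + C3G overlap for Fancd2, Fanci and Usp1.

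Promoter sequence was examined because E2F factors bind genes of this kind. RefSeq windows of 250 bases before to 50 after the start (build GRCr8) matched 122 of the 145 genes by symbol or identifier. The E2F letters TTTCGCGC or TTTGGCGC, searched on both strands in any window of a gene, were present for 9 of 122 (7.38%). They were present for 144 of 9032 tested genes with a window (1.59%) and for 245 of all 27457 RefSeq genes with a window (0.892%). Carriers were Pole2, Pole, Pola1, Topbp1, Rfc3, Usp1, Lig1, Polk and Nthl1. Of the genes lower in PA, 8 of 76 held the letters, and so did 1 of 10 that were higher (Nthl1) and 0 of 36 not called. Members with the letters had a median log2 fold change of -0.94 in PA against BSA, and the other 113 had -0.33. Among all tested genes the medians were -0.11 for the 144 carriers and 0.00 for the rest. The letters CCAAT were found for 43.4% of the members and 39.2% of tested genes, and the CHR letters TTTGAA for 13.9% and 11.9%. A match describes these letters only, and binding was not measured here.

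The 200 bases before the start are shown for the carriers whose match lay wholly upstream, 3 that fell with PA and 1 that rose, with the match in capitals, 5' to 3' on the strand of the gene. They are from RefSeq, GRCr8: Pola1 at chrX:62342356-62342555 on the minus strand, Topbp1 at chr8:112766606-112766805, Usp1 at chr5:118702856-118703055 and Nthl1 at chr10:14160134-14160333 on the plus strand.
Pola1: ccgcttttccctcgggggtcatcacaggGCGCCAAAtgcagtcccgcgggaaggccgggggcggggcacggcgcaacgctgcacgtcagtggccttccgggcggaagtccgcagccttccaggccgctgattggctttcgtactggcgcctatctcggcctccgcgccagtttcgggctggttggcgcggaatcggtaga
Topbp1: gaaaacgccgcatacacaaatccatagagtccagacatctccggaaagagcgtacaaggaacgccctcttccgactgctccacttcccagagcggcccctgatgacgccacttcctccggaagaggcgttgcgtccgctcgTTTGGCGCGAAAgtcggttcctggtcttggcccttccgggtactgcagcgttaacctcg
Usp1: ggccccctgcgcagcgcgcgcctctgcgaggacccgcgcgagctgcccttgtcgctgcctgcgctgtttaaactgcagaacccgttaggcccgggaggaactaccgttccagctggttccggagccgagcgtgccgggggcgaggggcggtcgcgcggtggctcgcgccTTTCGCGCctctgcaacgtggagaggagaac
Nthl1: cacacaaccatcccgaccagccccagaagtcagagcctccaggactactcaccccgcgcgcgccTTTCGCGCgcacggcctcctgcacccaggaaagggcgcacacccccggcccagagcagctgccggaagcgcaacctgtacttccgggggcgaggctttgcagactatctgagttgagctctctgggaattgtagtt
Counted from the start, the match lay at -172 in Pola1, -31 in Usp1 and -136 in Nthl1. In Topbp1 a pair of overlapping matches on opposite strands lay at -59 and -55. Topbp1, a scaffold that activates the ATR kinase, was at 12.6, 11.2 and 12.6 FPKM in BSA, 5.33, 5.19 and 5.13 in PA, and 5.99, 6.57 and 6.77 in PA + C3G, with the groups apart (-1.19 ± 0.07 and 0.34 ± 0.07). Nthl1, a glycosylase for oxidised pyrimidines that carries the same letters, moved upward, as described below.

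The strand exchange group, which pairs a broken end with its sister in homologous recombination, had 9 lower and 2 higher of 11 genes in PA, with a median of -1.32. The shares of all genes tested were 25.2% lower and 25.8% higher. Rad54l, a motor protein that helps a strand invade a duplex (ENSRNOG00000013148, 5:134948512-134978125), was at 6.22, 5.11 and 6.3 FPKM in BSA, 1.32, 1.1 and 0.953 in PA, and 1.92, 1.98 and 1.65 in PA + C3G. The 3 groups did not overlap. The fall was 5.11-fold (-2.35 ± 0.16, adjusted p = 1.73e-06) and the difference with C3G 1.69-fold (0.75 ± 0.15, adjusted p = 0.00821). Its relative Rad54b fell by 1.60 and was 0.69 ± 0.13 higher with C3G. Brca2, a mediator of strand exchange, was at 2.90, 2.56 and 2.69 FPKM in BSA, 0.719, 0.683 and 0.791 in PA, and 0.822, 0.924 and 0.931 in PA + C3G. All 3 groups were apart at low levels, with -1.87 ± 0.09 in PA and 0.32 ± 0.09 with C3G (adjusted p = 0.0322), the second lost without BSA replicate 3, PA replicate 1 or 2 or PA + C3G replicate 2 or 3 (0.0562 to 0.104). Rad51c and Xrcc2, of the same group, were lower in PA by 1.59 and 1.32 and did not pass with C3G (0.29 ± 0.10 and 0.14 ± 0.10). Rad54l overlaps Lrrc41 on the other strand and Rad54b overlaps Fsbp on its own strand, as Bard1 and Pola2 each overlap another gene of the table, so reads may be shared there. Sem1, a small BRCA2-binding protein that is also a proteasome subunit and the most abundant of the list per length, was at -0.21 ± 0.05 and 0.22 ± 0.05, the second lost without PA replicate 1 or 3 or PA + C3G replicate 1 or 3 (0.0614 to 0.0748).

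BRCA1 and its partners had 6 lower and 0 higher of 8 genes in PA (median -0.33) and 4 higher with C3G. Of all genes tested, 25.2% were lower and 25.8% higher in PA, and 11.1% were higher with C3G. Brca1, Bard1 and Brip1, the ubiquitin ligase, its partner and the helicase that binds it, fell by 1.79, 2.20 and 2.63 on the log2 scale. Brip1 was at 2.83, 2.30 and 2.88 FPKM in BSA, 0.354, 0.419 and 0.493 in PA, and 0.740, 0.920 and 0.854 in PA + C3G. The groups were apart, with a 6.2-fold fall (adjusted p = 1.49e-06) and a 2.04-fold rise with C3G (1.02 ± 0.17, adjusted p = 0.00289). On the log2(FPKM + 1) scale with limma, which understates changes of low genes, this C3G call was lost (0.37, adjusted p = 0.0527). Brca1 was 0.48 ± 0.08 higher with C3G (adjusted p = 0.00392) and Bard1 0.48 ± 0.11 (adjusted p = 0.0147), the latter lost without PA replicate 1 (adjusted p = 0.0518). Babam1, a subunit of the BRCA1-A complex and the most abundant of the list, was at -0.15 ± 0.07 in PA (adjusted p = 0.0869).

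The genes that sense and trim breaks had 5 lower and 0 higher of 6 in PA (median -0.33), Topbp1 among them. For all genes tested, 25.2% were lower and 25.8% higher. Rad50, part of the complex that binds broken ends, Atm, the kinase that signals breaks, and Rbbp8, the resection factor CtIP, were lower in PA by 0.48, 0.41 and 0.20. With C3G these 3 did not pass, at 0.02 ± 0.05, -0.04 ± 0.05 and 0.03 ± 0.05. The dissolvasome undoes crossover intermediates. Its list, which also holds the separate topoisomerase gene Top3b, had 4 of 5 genes lower in PA (median -0.36). Blm, the dissolvasome's helicase, was at 6.78, 7.09 and 6.92 FPKM in BSA, 3.01, 2.94 and 3.41 in PA, and 2.61, 2.64 and 2.23 in PA + C3G. The PA + C3G libraries of Blm lay below all PA libraries, but the difference did not pass (-0.29 ± 0.09, adjusted p = 0.0514), against -1.13 ± 0.09 for PA. Rmi1, the most abundant of these 5 per length, was at -0.26 ± 0.04 in PA and 0.18 ± 0.04 with C3G (adjusted p = 0.00706), a call lost under TPM scaling. Rmi2 fell by 2.11 on the log2 scale in PA, and its C3G libraries were uneven, at 5.39, 2.72 and 2.63 FPKM against 2.29, 1.78 and 2.90 in PA (adjusted p = 0.169).

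In the Fanconi pathway, which repairs links between the strands, the core complex, a ubiquitin ligase, had 7 of 9 genes lower with a median of -0.87 in PA, and 2 were higher with C3G. Among all genes tested, 25.2% were lower in PA and 11.1% higher with C3G. Fancb and Fanca fell by 2.06 and 1.72 and were 0.73 ± 0.21 (adjusted p = 0.0344) and 0.62 ± 0.15 (adjusted p = 0.0161) higher with C3G. The first of these C3G calls was lost without PA replicate 1 or 2 or PA + C3G replicate 2 or 3 (0.0883 to 0.104) and the second without PA replicate 3 (adjusted p = 0.0582). Fance, the most abundant core subunit per length, was at 0.18 ± 0.09 in PA (adjusted p = 0.123). Fanca overlaps Zfp276 on the other strand, and whether counting used strand is not given in the sources used here.

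All 5 genes of the ID2 complex and its ubiquitin cycle fell with PA (median -1.54), where 25.2% of all genes tested did. In PA + C3G against PA, 0 of 5 passed, where 11.1% of all genes tested were higher and 10.2% lower. The list's median was 0.08, with 1 higher and 0 lower at an unadjusted p under 0.05 by edgeR. A count of 0 in so short a list lies near those shares. Medians near 0 with C3G were also seen in the dissolvasome list (0.05), break sensing (0.04) and translesion polymerases (-0.05). Fancd2, part of the clamp that the core complex ubiquitinates (ENSRNOG00000061085, 4:145489869-145551479), was at 12.6, 10.8 and 12.6 FPKM in BSA, 3.52, 2.94 and 3.77 in PA, and 3.70, 3.68 and 3.14 in PA + C3G. PA and PA + C3G overlapped and both lay below BSA, with -1.79 ± 0.11 (adjusted p = 1.06e-06) for PA and 0.08 ± 0.11 (adjusted p = 0.663) for C3G against PA alone. Fanci, its partner, was at 10.3, 8.76 and 8.99 FPKM in BSA, 3.27, 2.96 and 3.22 in PA, and 3.02, 3.18 and 3.85 in PA + C3G, again with both treated groups overlapping (-1.54 ± 0.11 and 0.12 ± 0.11). Ube2t, the conjugating enzyme, was at -1.55 ± 0.17 and -0.06 ± 0.16, and Usp1, the protease that removes the mark, at -0.82 ± 0.05 and 0.15 ± 0.05 (adjusted p = 0.0622 for the second). No difference in C3G response between these genes and the polymerase or strand exchange genes was tested. With 3 libraries per group a p that misses the threshold does not show equal levels.

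Mismatch recognition had 5 lower and 0 higher of 6 genes in PA, with a median of -0.31, where 25.2% and 25.8% of all genes tested were. Msh6, a subunit of the dimer that recognises mismatched bases and the most abundant gene of the list per length, was at 36.1, 34.4 and 35.4 FPKM in BSA, 28.5, 27.0 and 27.6 in PA, and 29.7, 30.2 and 28.2 in PA + C3G. BSA lay above both treated groups, which overlapped, at -0.33 ± 0.04 in PA (adjusted p = 0.0001) and 0.12 ± 0.04 with C3G (adjusted p = 0.0546).

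Base excision glycosylases, which cut out damaged bases, had 4 lower (40.0%) and 3 higher (30.0%) of 10 tested in PA. Among all genes tested, 25.2% were lower and 25.8% higher. Neil3, which acts on single-stranded and fork DNA (ENSRNOG00000011688, 16:41079444-41138505), had the largest fall of the 142 genes. It was at 3.82, 3.42 and 5.33 FPKM in BSA, 0.501, 0.557 and 0.695 in PA, and 1.03, 0.986 and 1.26 in PA + C3G. The groups were apart, with a 7.01-fold fall (-2.81 ± 0.22, adjusted p = 5.22e-06) and a 1.92-fold rise with C3G (0.94 ± 0.21, adjusted p = 0.0138), the latter lost with limma on log2(FPKM + 1) (0.40, adjusted p = 0.0848). Its relative Neil1 rose with PA. Tdg, the most abundant glycosylase per length, was at 49.6, 45.3 and 48.0 FPKM in BSA and 30.0, 38.9 and 39.8 in PA, apart but uneven (-0.37 ± 0.12, adjusted p = 0.0295), and the call was lost without BSA replicate 1 or 3 or PA replicate 1 (0.0658 to 0.084). Ung, which removes uracil, was at 0.00 ± 0.06 (adjusted p = 0.986). Downstream of the glycosylases, 3 genes were lower (33.3%) and 2 higher (22.2%) of 9 in PA, with a median of -0.01. These shares lay near those of all genes tested. Apex1, the main abasic endonuclease, was at -0.01 ± 0.07 and Polb, the gap-filling polymerase, at -0.01 ± 0.09. Parp1, the break sensor and most abundant of the list, fell by 0.29 (adjusted p = 0.000199). Apex2, a second abasic endonuclease, fell by 0.64 (adjusted p = 0.00407) and the entry named Hmgb1, a chromatin protein, by 0.60 (adjusted p = 1.07e-05). This Hmgb1 entry lies on chromosome 16 in the authors' table, whereas the RefSeq window of Hmgb1 is on chromosome 12. How reads of near-identical copies were divided is uncertain there too.

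Nucleotide excision had medians near 0 for its recognition genes and for TFIIH. Recognition genes had 4 lower (33.3%) and 1 higher (8.33%) of 12 with a median of -0.04, where 25.2% and 25.8% of all genes tested were. TFIIH, the helicase complex that also opens promoters, had 0 lower and 1 higher of 10 with a median of -0.02. Ercc2 and Ercc3, its helicases, were at 0.04 ± 0.06 and -0.05 ± 0.08, and Gtf2h5, its most abundant subunit per length, at 0.01 ± 0.09. Ddb1, the damage-binding adaptor, was at 0.03 ± 0.04. Rad23b, the XPC partner with the highest level among the recognition genes, was at 215, 201 and 205 FPKM in BSA, 176, 171 and 171 in PA, and 185, 180 and 184 in PA + C3G. These ranges were apart by a small amount (-0.24 ± 0.03 and 0.12 ± 0.03), and the C3G call was lost without any library other than BSA replicate 1 or 2 (0.0514 to 0.108). The repair nucleases had 3 lower (37.5%) and 1 higher (12.5%) of 8 in PA. With C3G 3 of them (37.5%) were higher, where 11.1% of all genes tested were. Eme1, the partner of MUS81 at stalled forks, fell by 2.54 and was 0.70 ± 0.17 higher with C3G, the latter lost without PA + C3G replicate 1 (adjusted p = 0.0564). Eme2, a further MUS81 partner and the most abundant of the list, was at -0.04 ± 0.09. Ercc1, the non-catalytic subunit of an endonuclease that cuts on one side of a lesion, was at -0.42 ± 0.09 and 0.37 ± 0.09. Its PA + C3G libraries (14.6, 13.9 and 14.9 FPKM) reached the BSA range (15.4, 16.6 and 14.8). That C3G call was lost without PA replicate 3 or PA + C3G replicate 3 (adjusted p 0.0506 to 0.0628), and Ercc1 overlaps Cd3eap on the other strand.

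**Figure D4:**
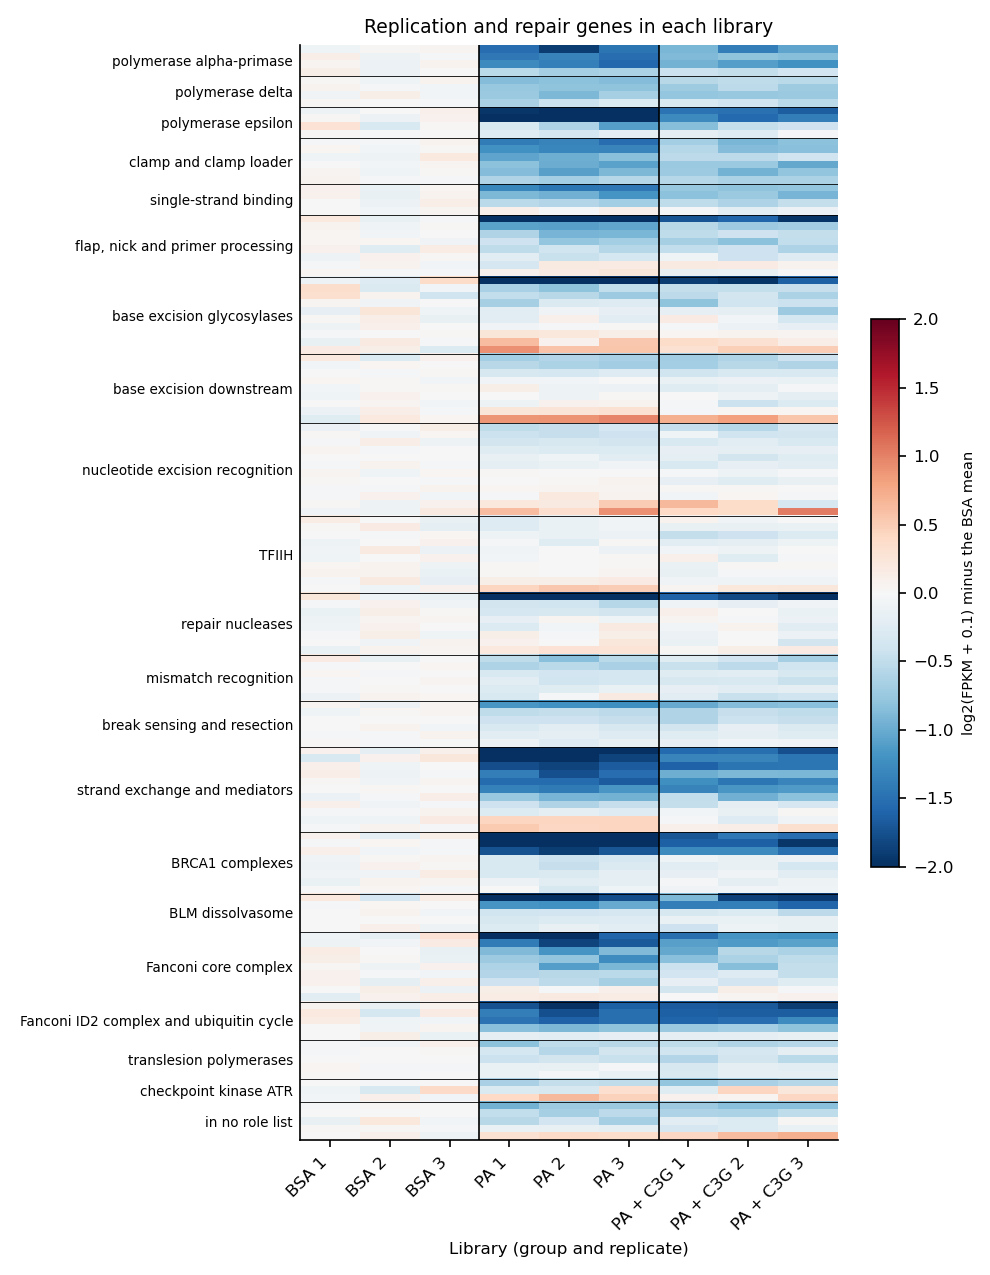
Log2(FPKM + 0.1) of each of the 142 tested genes (rows, by role) in each of the 9 libraries (columns), minus the gene's mean over the BSA libraries (colour, cut at -2 and 2). Most rows of the polymerase, clamp, strand exchange, BRCA1 and Fanconi blocks are blue in PA. Rad51d (0.48) and Rad52 (0.46) are the reddest exceptions, and Fance (0.18) and Fancf (0.09) of the Fanconi core also lie above 0. The ID2 rows stay about as blue in PA + C3G (median 0.08 against PA). The TFIIH block is close to white, with Gtf2h1 (0.51 in PA against BSA) as its reddest row.

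Among the 142 genes tested, 12 rose with PA, where 25.8% of all genes tested did. Parp3, a poly(ADP-ribose) polymerase of the break response, rose most. It was at 2.35, 3.21 and 2.87 FPKM in BSA, 5.20, 5.26 and 5.59 in PA, and 4.64, 5.01 and 4.12 in PA + C3G. Both treated groups lay above BSA, with 0.96 ± 0.14 (adjusted p = 0.000263) for PA and 0.77 ± 0.14 (adjusted p = 0.00166) for PA + C3G against BSA. Neil1, a glycosylase for oxidised bases, was at 4.26, 4.11 and 3.14 FPKM in BSA, 7.22, 5.66 and 5.66 in PA, and 4.71, 5.31 and 5.36 in PA + C3G. It was higher by 0.71 ± 0.15 in PA, and its 0.48 ± 0.15 in PA + C3G against BSA was lost without BSA replicate 3 or PA + C3G replicate 2 or 3 (adjusted p 0.0847 to 0.111). Xpa, the scaffold of nucleotide excision, was at 0.67 ± 0.21 (adjusted p = 0.0238), lost without BSA replicate 1 or 2 or PA replicate 1 or 3 (0.0517 to 0.0919), and it overlaps Ncbp1 on the other strand. Nthl1 was at 4.21, 5.32 and 4.56 FPKM in BSA and 7.25, 4.98 and 6.81 in PA, which overlapped, and its call (0.46 ± 0.17, adjusted p = 0.0425) was lost without any library other than BSA replicate 2 or PA replicate 2 (0.0529 to 0.152).

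Rad52, which anneals single strands, had the largest fall with C3G among the 5 genes lower in PA + C3G than in PA. It was at 4.98, 5.01 and 5.96 FPKM in BSA, 7.20, 7.19 and 7.17 in PA, and 5.15, 4.43 and 5.04 in PA + C3G. PA stood above both other groups, which overlapped (0.46 ± 0.10, adjusted p = 0.00458, and -0.52 ± 0.10, adjusted p = 0.00756). Gtf2h1, the p62 subunit of TFIIH, was at 12.9, 12.2 and 13.8 FPKM in BSA, 17.5, 18.9 and 18.3 in PA, and 13.4, 15.0 and 15.2 in PA + C3G. It rose by 0.51 ± 0.07 with PA and was at -0.29 ± 0.07 with C3G. Xrcc1 and Lig3, partners in sealing single-strand breaks, were higher in PA by 0.29 ± 0.06 and 0.19 ± 0.05, and at -0.22 ± 0.06 (adjusted p = 0.0287) and -0.23 ± 0.05 (adjusted p = 0.00918) with C3G. The C3G call of Xrcc1 was lost without any PA library or PA + C3G replicate 1 or 3 (0.0541 to 0.0943), and Lig3 overlaps Rffl on the other strand. Cul4b, a ubiquitin ligase scaffold of damage recognition, was the remaining gene lower with C3G (-0.18 ± 0.04, adjusted p = 0.0126), and this was lost without PA replicate 3 (adjusted p = 0.0518). Rad51d, of the strand exchange group, and Telo2, which stabilises ATR and related kinases, were higher in PA by 0.48 ± 0.08 and 0.54 ± 0.11 and did not pass with C3G (-0.23 ± 0.08 and -0.28 ± 0.11), as did Ercc5 and Smug1 (0.28 and 0.22 in PA). Atr itself fell by 0.53 with PA.

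The remaining lists were small. Translesion polymerases, which copy across damage, had 3 lower and 0 higher of 5 tested in PA (median -0.39), where 25.2% and 25.8% of all genes tested were. Polh was at -0.61 ± 0.10 and Rev1, the most abundant per length, at -0.07 ± 0.05 (adjusted p = 0.232). Hes1, a transcriptional repressor that KEGG lists with the Fanconi genes, was at -0.51 ± 0.12 in PA and 0.41 ± 0.12 with C3G (adjusted p = 0.0397), the second lost without BSA replicate 3, PA replicate 1 or 3 or PA + C3G replicate 1 or 3 (0.0589 to 0.134). Sycp3, a protein of the meiotic chromosome axis, was at 1.3, 1.39 and 1.2 FPKM in BSA, 1.63, 1.72 and 1.69 in PA, and 1.76, 2.03 and 2.18 in PA + C3G. Both treated groups lay above BSA, and 0.68 ± 0.15 passed for PA + C3G (adjusted p = 0.00626) whereas 0.39 ± 0.15 for PA did not (adjusted p = 0.052). AABR07029002, described in the table as ERCC4 and sharing its name with another entry, was at -0.14 ± 0.07 in PA.

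**Figure D5:**
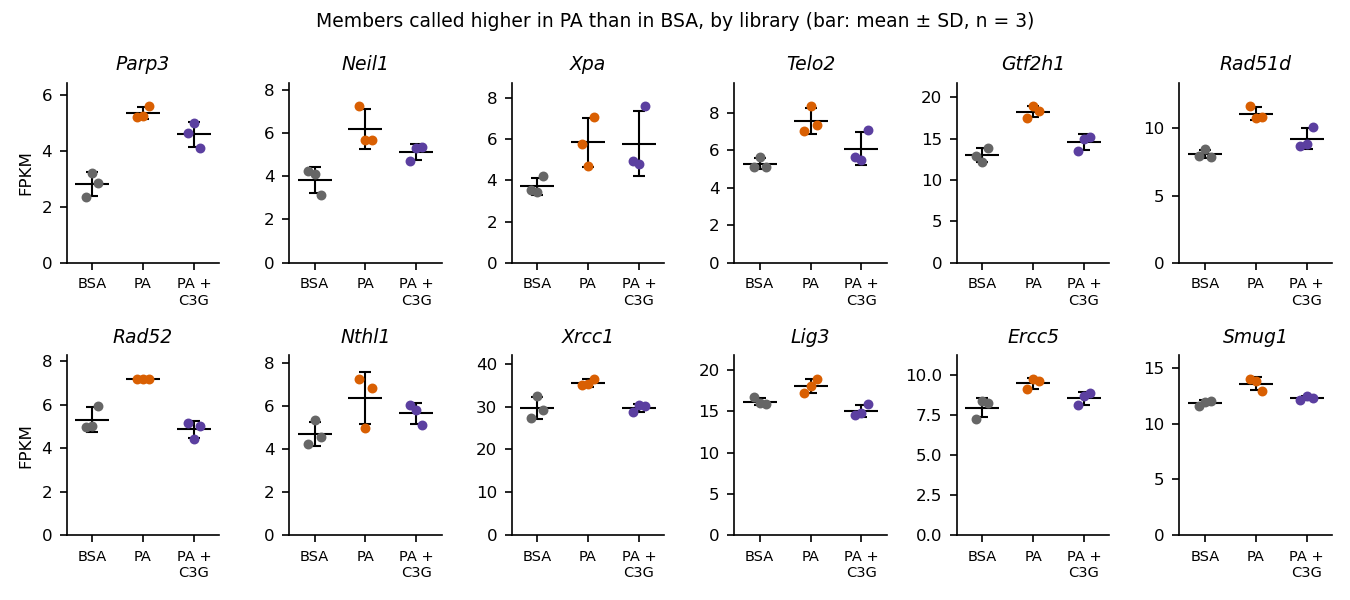
FPKM (vertical axes, from 0) of the 12 genes called higher in PA than in BSA in each library (points), with the mean and SD of 3 libraries per group. Rad52, Gtf2h1, Xrcc1 and Lig3 lie lower in PA + C3G than in PA, Parp3 stays above BSA, and Nthl1 overlaps between BSA and PA.

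Related genes outside the 6 pathways were taken from lists. Deoxynucleotide supply had 9 lower and 0 higher of 10 genes in PA (median -1.31) and 6 higher and 0 lower with C3G. Of all genes tested, 25.2% were lower and 25.8% higher in PA, and 11.1% were higher and 10.2% lower with C3G. Rrm2, the regulated subunit of ribonucleotide reductase, was at 75.9, 60.0 and 74.2 FPKM in BSA, 10.3, 8.90 and 13.1 in PA, and 25, 22.1 and 17.3 in PA + C3G. Its groups were apart, with -2.68 ± 0.17 and then 1.03 ± 0.17. The salvage kinases Dck and Tk1 fell by 2.12 and 2.03. E2F and RB family genes had 5 lower and 0 higher of 6 tested, with E2f8 at -2.66 ± 0.09, E2f7 at -2.17 ± 0.15 and E2f2 at -2.0 ± 0.20, and 2 were higher with C3G. End joining, a further break repair route, had 2 lower and 1 higher of 8, where 25.2% and 25.8% of all genes tested were. Neither share stood above that of all genes. Its largest change was Nhej1, a factor that stabilises the joining complex, at 1.29, 1.72 and 1.11 FPKM in BSA, 3.45, 2.87 and 3.23 in PA, and 1.40, 1.85 and 1.82 in PA + C3G. PA lay above the other groups, which overlapped (1.23 ± 0.20, adjusted p = 0.000722, and -0.88 ± 0.20, adjusted p = 0.0145). Xrcc5 and Xrcc6, which encode the Ku proteins that bind broken ends, were at -0.25 ± 0.10 (adjusted p = 0.0679) and -0.24 ± 0.06 (adjusted p = 0.00723) in PA. Targets of p53, which mark the DNA damage response, had 2 lower and 2 higher of 10 with a median of -0.02, both shares below those of all genes. Cdkn1a, the cell cycle inhibitor p21, fell by 0.50 (adjusted p = 0.00957), whereas Aen, a nuclease of apoptosis, and Phlda3, an inhibitor of AKT signalling, rose by 0.42 ± 0.06 (adjusted p = 0.000232) and 0.32 ± 0.10 (adjusted p = 0.0191).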

How the data were processed

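RNA from 9 INS-1E samples (3 groups of 3, grouped by their labels) was sequenced from poly(A) RNA. The authors deposited 1 table with estimated counts per gene and FPKM for each sample; per the labels, cutadapt 1.9, HISAT2 2.0.4, StringTie 1.3.4d, DESeq2 and edgeR were used, and the genome build is not given in the sources used here. Low counts piled up at multiples of 4 (4044 gene values of 4 against 2040 of 3 and 1276 of 5), so counts divided by 4 were an alternative. The table also holds gene annotation, from which the KEGG pathways were taken.

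Deposited estimated counts, already whole numbers, were tested with edgeR 4.0.16 (quasi-likelihood, TMM scaling, all 9 libraries in 1 fit, R 4.3.3) for genes whose FPKM averaged at least 1, and p-values were adjusted over 12958 genes. SE was the log2 fold change divided by the square root of F. Deposited FPKM gave the displayed levels. Alternatives used DESeq2 1.42.0, limma 3.58.1 on log2(FPKM + 1) or log2(FPKM + 0.1), other scalings and filters, and left out each library. The fit was tested on simulated data. Within-group correlations of log2 CPM were 0.985 to 0.989, and no 2 libraries had equal counts for more than 0.58% of genes, so none was a repeat. The labels do not say that samples came from separate cultures, so p-values measure the spread between these samples.

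Members and lists were chosen with earlier results of these data known. Genes named were the polymerase and clamp lists, up to 5 per pathway with the largest changes in PA against BSA and in PA + C3G against PA whose groups did not overlap, up to 8 of the largest rises in PA and of the falls with C3G, the most abundant gene of each list, and up to 3 per outside list with the largest changes in PA against BSA. AABR07029002, Apex1, Apex2, Atm, Atr, Blm, Brca1, Brca2, Ddb1, Ercc1, Ercc2, Ercc3, Ercc5, Fanca, Fancd2, Fanci, Hes1, Hmgb1, LOC100362333, Lig1, Polb, Polh, Polk, Rad50, Rad51c, Smug1, Ssbp1, Sycp3, Topbp1, Ube2t, Ung and Xrcc2 were added after their values were seen. Some genes of the outside lists are not analysed here, and some members are not reported here.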

Additional observations from a re-analysis of the deposited data

How the results depend on the processing

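No result reversed under any alternative. In PA against BSA, 88 lower and 12 higher genes became 29 and 0 under the study's fold criterion, and the median of -0.37 was -0.336 with TPM scaling, -0.301 with a minimum of 5 FPKM, -0.392 with limma at a pseudocount of 0.1, and -0.393 to -0.353 with 1 library left out. In PA + C3G against PA, 5 genes lower became 8 with DESeq2, 15 with TPM scaling, 0 by the fold criterion and 3 to 7 with 1 library left out (3 without PA replicate 3). Genes higher, 33, became 21 with TPM scaling, 21 with limma at a pseudocount of 1, 2 by the fold criterion and 22 to 32 with 1 library left out. The median of 0.10 was 0.0104 with TPM scaling, 0.0476 with a minimum of 5 FPKM, 0.0571 and 0.0653 with limma at pseudocounts of 1 and 0.1, and 0.0831 to 0.109 with 1 library left out. In PA + C3G against BSA, 6 genes higher became 3 with TPM scaling, 0 by the fold criterion and 3 to 6 with 1 library left out (3 without BSA replicate 1 or PA + C3G replicate 3), and 75 lower became 22 by the fold criterion. Its median of -0.28 was -0.338 with TPM scaling, -0.198 with a minimum of 5 FPKM, -0.338 with limma at a pseudocount of 0.1, and -0.298 to -0.257 with 1 library left out. The cause of these shifts was not tested. Of all 12958 genes tested, the fold criterion called 428 higher in PA against BSA and 56 lower in PA + C3G against PA. It called 241 higher in PA + C3G against BSA. Replicate numbers are shared between groups, and the labels do not say whether they mark pairs. Over all genes tested, same-numbered libraries deviated from their group means with correlations of -0.0689 to 0.149, which do not decide it. Single genes such as Gcg were lowest in replicate 2 of each group. The main fit did not treat the libraries as pairs. With a replicate block, 88 genes were lower and 11 higher in PA against BSA, 5 and 35 in PA + C3G against PA, and 78 and 7 in PA + C3G against BSA. For single genes, 45 of the calls recomputed in PA against BSA were lost and 1830 kept, 59 were lost and 1458 kept in PA + C3G against BSA, and 121 were lost and 591 kept in PA + C3G against PA. Of the upward C3G calls named here, those of Brca2, Fancb, Hes1, Pola2, Pole2, Prim1, Rad23b, Rmi1 and Sem1 were lost under TPM scaling. With limma at both pseudocounts, those of Brca2, Eme1, Fanca, Fancb, Hes1, Pola2, Prim1 and Rad23b were lost. Those of Bard1, Brip1 and Neil3 were lost at a pseudocount of 1 only, and that of Pole2 at 0.1 only. With only the compared groups in the fit, 33 genes higher with C3G became 25. The calls of Bard1, Brca2, Fancb, Pola2, Pole2 and Prim2 were lost there. Depth limits the low genes, such as Pole2, whose PA libraries held 31 to 89 estimated counts.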
